A study of Mus musculus with 8 samples.

Results

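Slit2 and Slit3 encode secreted guidance ligands, Robo1 and Robo2 encode receptors that bind them, and Srgap1 and Srgap2 encode GTPase-activating proteins that act downstream of the Robo receptors. All rows of the DRIP-seq peak table that carried one of these 6 gene symbols were taken, which gave 41 of 28265 union peaks. Robo1 held 16 of them, Srgap2 held 22, Srgap1 held 2 and Robo2 held 1, while no row carried Slit2 or Slit3. DRIP-seq pulls down DNA with the S9.6 antibody, which binds RNA:DNA hybrids, and so maps R-loops, in which a nascent transcript pairs with its template strand and displaces the other DNA strand. The study compared 3 S9.6 libraries of control mouse muscle stem cells (MuSCs; Ctrl, genotype Pax7CreERT/Suv4-20h1WT) with 3 of cells that lacked Kmt5b, a histone H4K20 dimethyltransferase formerly named Suv4-20h1 (Kmt5b sKO, genotype Pax7CreERT/Suv4-20h1KO), to ask where R-loops form when this enzyme is absent. Both genotypes carried the tamoxifen-inducible Cre driven from Pax7, a gene of MuSCs, so the deletion reached only cells in which that Cre was active. The labels give neither age nor sex, and do not say whether libraries of a genotype came from separate animals. The paper describes the cells as proliferating and the libraries as 3 biological replicates, with n = 3 mice for its comparison of peaks. The p-values rest on the spread between these libraries, which the limma fit below took from all features of like score.

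A Slit ligand binds the immunoglobulin domains of a Robo receptor, with heparan sulphate proteoglycans as co-receptors. The cytoplasmic tail of Robo has no enzymatic activity of its own and recruits adaptors such as Nck and Sos proteins, Abl kinases and the srGAPs. The srGAPs bend membranes through their F-BAR domain, and Pak kinases and actin regulators act further downstream. The pathway is best known for steering axons away from the midline, and it also acts on the migration and adhesion of other cells, myogenic cells included.

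The score of a peak is its S9.6 signal scaled to Drosophila spike-in reads, summed over the peak and rounded to a whole number by the authors. Scores summed over all 28265 peaks ranged from 3893768 to 4729631 in the Ctrl libraries and from 4699599 to 4930261 in the Kmt5b sKO libraries, and read depth was not used here. Calls required an adjusted p-value below 0.1 (limma on log2(score + 1), Benjamini-Hochberg) and a fold change over 1.5, among 25815 autosomal peaks with a mean score over 30. Of these, 32.9% were called higher in Kmt5b sKO and 0.883% lower, and their median log2 fold change was 0.35. The fit took its variance from the trend over all peaks of like score, so a peak's own spread did not enter its p-value. With each peak's own variance 5454 peaks were called higher, against 8484 here. The only peak of the targeted gene, Kmt5b, scored 412, 658 and 420 in Ctrl and 440, 449 and 484 in Kmt5b sKO (log2 fold change −0.08, SE 0.14, adjusted p = 0.68, and 0.14 without Ctrl replicate 2), and an S9.6 score is no test of the deletion. Of 10 MuSC marker genes 5 held peaks, with a summed score of 4137 to 4933 in Ctrl and 4648 to 4804 in Kmt5b sKO. Most of this sum was Pax7 (Ctrl mean 2835). Of the sums per gene, Sdc4 was called higher (log2 fold change 1.13), while Itga7 (0.30), Myod1 (0.27), Des (0.13) and Pax7 (−0.06) were not called. Markers of fibro-adipogenic (5 genes), immune (4) and Schwann cells (3) held no peak. Nor did the MuSC markers Cdh15, Chrdl2, Msc, Myf5 and Vcam1. An S9.6 score is no measure of expression, so lack of a peak does not show that a cell type was absent. Of 5 endothelial markers, Tek and Pecam1 held 5 peaks whose summed score was 178 to 193 in Ctrl and 290 to 364 in Kmt5b sKO, and Cdh5, Kdr and Robo4 held none. Tek (log2 fold change 1.13) and Pecam1 (0.62) were called higher, as were 29.3% of all gene sums. The part of endothelial cells in the results was not tested.

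Stretches of sequence from the peaks are printed to show what sequence lay under the signal. Each is the central 300 bases of a peak on the sense strand of its gene, read from RefSeq's GRCm38 genome, and capitals mark alternating TG or CA runs of at least 8 bases (TGTGTGTG, GTGTGTGT, CACACACA or ACACACAC on that strand). The Robo1 peak was still called higher after each library was centred on its median peak. The Robo2 and Srgap1 peaks are all that these genes held, and the Srgap2 peak had the largest fold change of its gene.
Robo1, chr16:72709650-72709949, plus strand: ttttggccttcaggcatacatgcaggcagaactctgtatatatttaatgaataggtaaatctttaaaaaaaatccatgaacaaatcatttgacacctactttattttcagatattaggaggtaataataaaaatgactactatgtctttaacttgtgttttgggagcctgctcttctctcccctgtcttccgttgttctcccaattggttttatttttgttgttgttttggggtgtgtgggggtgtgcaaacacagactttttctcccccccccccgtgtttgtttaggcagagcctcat
Robo2, chr16:74278950-74279249, minus strand: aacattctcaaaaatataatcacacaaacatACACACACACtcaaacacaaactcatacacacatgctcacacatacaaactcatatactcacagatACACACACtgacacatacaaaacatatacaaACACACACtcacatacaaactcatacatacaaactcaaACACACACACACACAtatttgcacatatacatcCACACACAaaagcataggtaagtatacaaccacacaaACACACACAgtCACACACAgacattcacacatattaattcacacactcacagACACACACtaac
Srgap1, chr10:121889450-121889749, minus strand: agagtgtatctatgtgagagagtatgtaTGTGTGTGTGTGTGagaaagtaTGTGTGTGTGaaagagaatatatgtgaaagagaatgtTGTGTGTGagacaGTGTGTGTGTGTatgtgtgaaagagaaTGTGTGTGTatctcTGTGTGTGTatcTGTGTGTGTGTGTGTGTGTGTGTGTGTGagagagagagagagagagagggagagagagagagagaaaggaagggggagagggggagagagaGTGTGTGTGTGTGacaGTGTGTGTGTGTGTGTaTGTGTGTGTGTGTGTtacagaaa
Srgap1, chr10:121876550-121876849, minus strand: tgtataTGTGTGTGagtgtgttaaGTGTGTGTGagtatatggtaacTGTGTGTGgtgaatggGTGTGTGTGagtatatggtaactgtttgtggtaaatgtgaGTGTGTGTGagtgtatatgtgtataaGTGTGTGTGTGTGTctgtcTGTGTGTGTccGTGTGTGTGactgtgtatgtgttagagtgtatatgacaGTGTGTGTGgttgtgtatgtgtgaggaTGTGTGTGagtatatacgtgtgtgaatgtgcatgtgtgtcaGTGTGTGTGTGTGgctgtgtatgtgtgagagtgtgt
Srgap2, chr1:131418250-131418549, minus strand: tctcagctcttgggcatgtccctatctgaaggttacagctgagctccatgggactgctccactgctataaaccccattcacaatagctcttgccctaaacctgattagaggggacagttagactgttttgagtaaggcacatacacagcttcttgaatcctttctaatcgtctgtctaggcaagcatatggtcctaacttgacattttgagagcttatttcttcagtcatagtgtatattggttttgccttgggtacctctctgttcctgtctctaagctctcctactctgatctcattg

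The 3 peaks of Robo2 and Srgap1 lay over dinucleotide repeats. In the Robo2 stretch 74 of 300 bases fell in CA runs, and 0.726% of the 21756 like windows (central 300 bases of tested peaks with a gene) held as many run bases. The Srgap1 stretches held 134 and 105 such bases, all in TG runs, which 0.142% and 0.313% of the windows reached. The printed Robo1 and Srgap2 stretches held none, but other peaks of both genes did. Some Robo1 peaks had 8 to 40 run bases in the central window, and Srgap2 peaks had 9 and 13. A run was present in the central window of 9 of the 41 peaks (22.0%), against 10.9% of the like windows. The 2 Srgap1 peaks were 92.1% and 81.4% repeat-masked and the Robo2 peak 56.5%, against a median of 26.3% over the tested peaks of the 4 genes. Reads that align to several places were removed by the authors, and the part of repeats in these scores was not tested.

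Neither ligand gene carried a union peak. No peak of any gene overlapped Slit2 (chr5:47983138-48307733, 325 kb) or Slit3 (chr11:35121224-35708507, 587 kb). A union peak needs signal over input in at least one library, and no score behind its absence was used here. Absence was common among long genes: 203 of 614 protein-coding autosomal genes of 200 to 400 kb (33.1%) and 68 of 245 genes of 400 to 800 kb (27.8%) had no peak. The nearest peak to Slit2 lay 24.9 kb beyond its 3′ end, at chr5:48332600-48333799, and carried the neighbouring gene Pacrgl. That peak scored 29, 17 and 25 in Ctrl and 38, 77 and 44 in Kmt5b sKO (log2 fold change 1.10, called higher). Each Ctrl score was under 30, so the peak passed the filter on the mean only through its Kmt5b sKO scores. The nearest peak to Slit3 was 296 kb away, carried Spdl1, and was not called (log2 fold change −0.16).

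Over the receptor and effector genes, S9.6 signal was higher in Kmt5b sKO MuSCs at 11 of the 40 tested peaks and lower at none. That share (27.5%) did not exceed the 32.9% of all tested peaks that were called higher. The filter used the mean of all 6 libraries, so some called peaks with a Ctrl mean under 30 entered only through their Kmt5b sKO scores. These were the Robo2 peak (Ctrl mean 26.7), 1 Srgap1 peak (28.3) and Robo1 peaks at chr16:72698600-72699599 (28) and chr16:72805000-72805599 (23). Without the filter 11 peaks were also called higher, but that count cannot address this selection, since the same peaks enter again. In these bulk libraries, more cells with a hybrid at a site and more hybrid per cell cannot be told apart. Scores of the 2 genotypes did not overlap at 18 peaks, all higher in Kmt5b sKO (45%), against 41.5% of all tested peaks, and at none was the order the other way (3.81% of all tested peaks). The median log2 fold change over the 40 peaks was 0.46, and 36 of them had a positive value (90%, against 78.7% of all tested peaks). The direction depended on the library scaling. With equal totals per library the median was 0.25, 7 peaks were called higher and none lower, and 29 of 40 values were positive. With each library centred on its median peak the median of the 40 peaks was −0.0015, 2 peaks were called higher and 1 lower, and with quantile normalization it was −0.08, with 1 called higher. The one peak not tested, a 400-bp Robo1 peak at chr16:72569200-72569599, scored 13, 10 and 16 in Ctrl and 18, 14 and 44 in Kmt5b sKO.

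**Figure D1:**
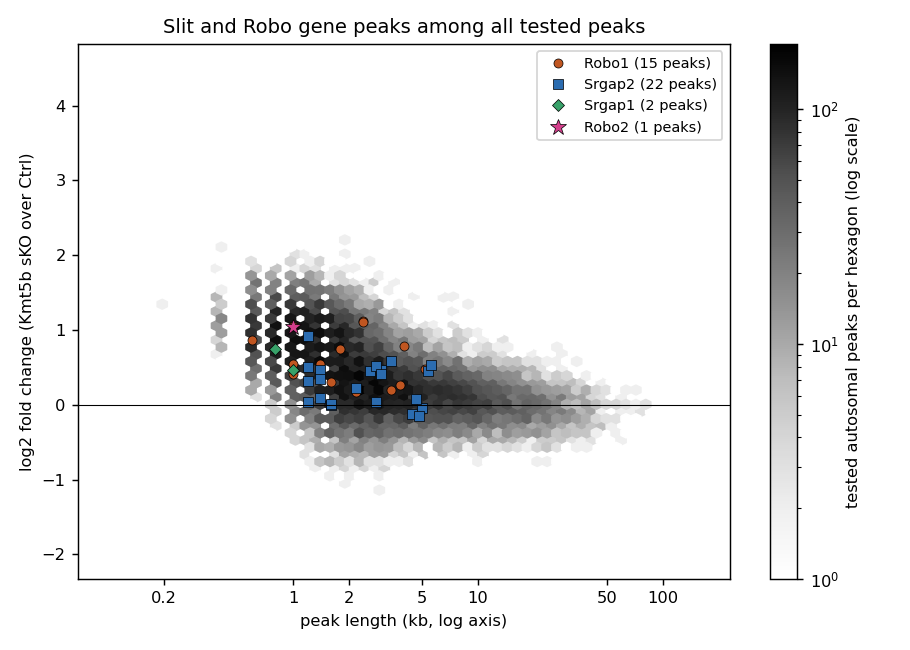
Log2 fold change (Kmt5b sKO over Ctrl) of each tested peak against its length in kb (log axis). Grey hexagons count all 25815 tested autosomal peaks and coloured symbols are the 40 tested peaks of Robo1, Robo2, Srgap1 and Srgap2, which lie between 0.6 and 5.6 kb and within the grey cloud.

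Fold change went down with peak length across the genome (Spearman rho −0.57 across all tested peaks, which are not independent). The rho was −0.22 over the 15 Robo1 peaks and −0.15 over the 22 Srgap2 peaks, which cover a narrower range of lengths, and these values were not tested against each other. Among peaks of at most 2 kb, 7 of 20 peaks of the 4 genes were called higher (35%), against 56.9% of all such peaks, and their median log2 fold change was 0.48 against 0.73. Among peaks over 2 kb, 4 of 20 were called higher (20%), against 14.4%, and the medians were 0.43 and 0.17. Of the short peaks 7 of 20 lay above the median of all peaks in their length class, and of the long peaks 14 of 20 did. In Robo1 4 of 8 short peaks were called higher (median 0.65) and 3 of 7 long ones (median 0.48), and in Srgap2 1 of 9 (median 0.32) and 1 of 13 (median 0.41). The differences between these medians were not tested. 

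Robo1 carried 7 of the 11 called peaks. Robo1 (ENSMUSG00000022883, chr16:72308306-73046095, plus strand, 738 kb) encodes the receptor best known for Slit-driven repulsion, and it was among the tumor suppressor genes that the study named from these libraries, so its count is not independent evidence. Its summed score was 848, 860 and 798 in Ctrl and 1142, 1346 and 1368 in Kmt5b sKO. The lowest Kmt5b sKO library lay above the highest Ctrl library. How many of the 8003 gene sums were separated in this way was not counted, so such separation is not read as a result for this gene or those below. The means were 835 ± 32.9 and 1285 ± 125 (SD, n = 3 each), a ratio of 1.54 and a log2 fold change of 0.62 (SE 0.13, adjusted p = 2.3e-05, limma over 8003 gene sums), called higher. Calls were made at 29.3% of all gene sums upward and at 0.262% downward, and the median gene sum had a log2 fold change of 0.32. The Robo1 value lay close to the fold threshold and fell under it without Ctrl replicate 3 (0.58), Kmt5b sKO replicate 2 (0.58) or Kmt5b sKO replicate 3 (0.57), with adjusted p-values up to 0.0037. With gene sums centred on the library median it was 0.27 (adjusted p = 0.0031), also under the fold threshold.

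**Figure D2:**
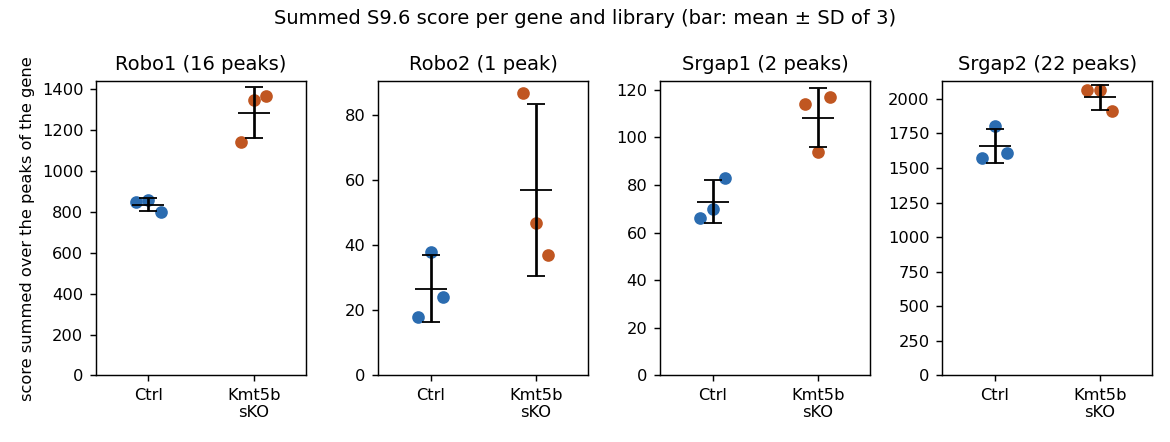
Score summed over the peaks of each gene (vertical axis, starting at 0) in the 3 Ctrl and 3 Kmt5b sKO libraries (points), with the mean ± SD of 3 as bars. The genotypes do not overlap for Robo1, Srgap1 and Srgap2, while for Robo2 the highest Ctrl library (38) lies above the lowest Kmt5b sKO library (37). The share of all gene sums without overlap was not counted.

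Of the 15 tested Robo1 peaks 7 were called higher, 9 did not overlap between genotypes, and all had a positive log2 fold change (0.17 to 1.12, median 0.55). These are 46.7% called and 60% not overlapping, against 32.9% and 41.5% of all tested peaks, 78.7% of which had a positive value. The largest change was at an intronic peak, chr16:72518400-72520799, which scored 35, 44 and 44 in Ctrl and 58, 107 and 116 in Kmt5b sKO (log2 fold change 1.12, SE 0.25, adjusted p = 8.5e-05). Kmt5b sKO replicate 1 was the lowest of its genotype there and still above every Ctrl library, and the call was lost with the peak's own variance (adjusted p = 0.1). A similar size of change was seen at chr16:72708600-72710999, with 38, 44 and 29 in Ctrl and 68, 71 and 106 in Kmt5b sKO (log2 fold change 1.11, adjusted p = 0.00025). The peak nearest the gene start of the table, chr16:72414200-72415999, scored 56, 43 and 50 in Ctrl and 78, 85 and 89 in Kmt5b sKO (log2 fold change 0.75, adjusted p = 0.0071), and was no longer called with equal totals per library (0.55) or median centring (0.29). The densest Robo1 peak per kb, chr16:72805000-72805599, had 31, 13 and 25 in Ctrl and 45, 39 and 38 in Kmt5b sKO (log2 fold change 0.87, adjusted p = 0.079), and its call was lost without Ctrl replicate 2, Ctrl replicate 3 or Kmt5b sKO replicate 1 (adjusted p up to 0.28). The longest, chr16:72719200-72724399, spanned 5200 bp with 139, 144 and 116 in Ctrl and 166, 161 and 235 in Kmt5b sKO. Its libraries did not overlap, but its log2 fold change of 0.48 (adjusted p = 0.022) was short of the fold threshold. The other 3 called peaks had log2 fold changes of 0.79 to 1.06.

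None of the Robo1 peaks lay at the gene start of the table, and the first lay 107 kb into the gene. The gene start in the table belongs to a long isoform, and the main transcripts (GENCODE basic set, and RefSeq) start at chr16:72663149, 355 kb further in. Upstream of that start lay 3 peaks, in the first 100 kb after it 7, and beyond that 6. The nearest to it was 8.55 kb downstream, at chr16:72671200-72672199, and was not called (log2 fold change 0.41, adjusted p = 0.36). Other annotated transcript starts in Robo1 were not compared with the peaks. Summed upstream scores were 104, 97 and 110 in Ctrl and 154, 206 and 249 in Kmt5b sKO, a ratio of means of 1.96. In the first 100 kb the ratio was 1.40 (474 ± 30.6 and 663 ± 87.9, SD, n = 3) and beyond it 1.63 (257 ± 14.5 and 419 ± 43). Each of the 3 stretches was higher in every Kmt5b sKO library than in any Ctrl library, and the differences between their ratios were not tested.

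The share of Robo1's score between the gene start and the midpoint of the gene, which is free of the library scale, was 16.6%, 14.3% and 17.8% in Ctrl and 16.7%, 18.1% and 22.1% in Kmt5b sKO. The genotypes overlapped (exact permutation test over libraries, two-sided, p = 0.2, adjusted p = 0.2 over 2 genes, where 0.1 is the smallest p that 3 against 3 allows). The share in peaks of at most 2 kb averaged 35.4% ± 5.01 for Ctrl and 37.6% ± 1.96 for Kmt5b sKO (SD, n = 3, exact permutation p = 0.7). Distance from the gene start and log2 fold change had a Spearman rho of −0.08 across the 15 peaks.

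**Figure D3:**
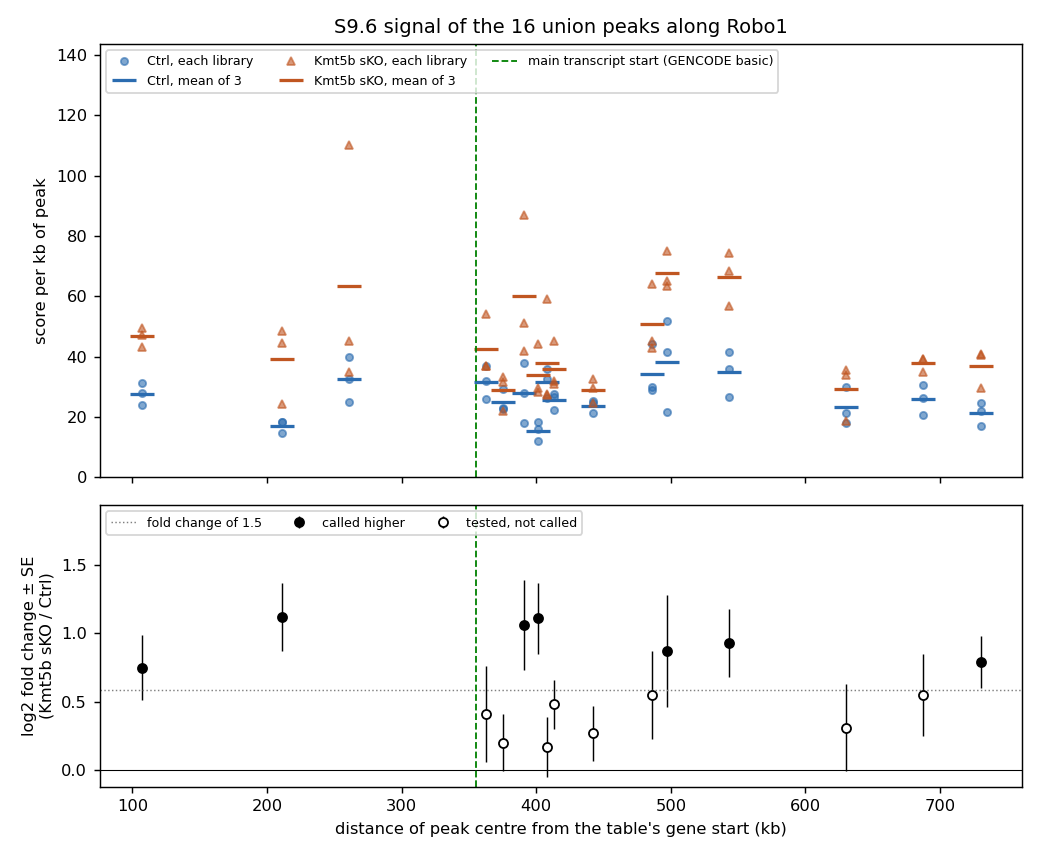
Robo1 peaks by distance of the peak centre from the gene start of the table (kb). The upper panel gives the score per kb of peak in each library (blue circles Ctrl, orange triangles Kmt5b sKO) with dashes for the mean of 3, and the lower panel the log2 fold change ± SE of the 15 tested peaks, filled where called higher. All 15 lie above 0, and the dashed vertical line marks the main transcript start at 355 kb.

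Robo2, the second receptor gene (ENSMUSG00000052516, chr16:73891839-74411825, minus strand, 520 kb), held a single intronic peak, chr16:74278600-74279599, whose CA runs are printed above. It scored 18, 38 and 24 in Ctrl and 87, 47 and 37 in Kmt5b sKO. The genotypes overlapped, and the first Kmt5b sKO library was far above the other two. The gene sum was called higher (26.7 ± 10.3 against 57 ± 26.5, SD, n = 3; log2 fold change 1.04, SE 0.34, adjusted p = 0.0079), but without Kmt5b sKO replicate 1 it was 0.69 with an adjusted p of 0.15. Centring on the median gene gave 0.69 with an adjusted p of 0.11, and the gene's own variance an adjusted p of 0.19. RefSeq's longer Robo2 model spans 1 further peak that carried no gene, chr16:74760000-74760799, with 30, 29 and 36 in Ctrl and 83, 67 and 74 in Kmt5b sKO (log2 fold change 1.21, called higher). It is not among the 41 peaks.

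Robo1 and Robo2 lie on the same chromosome in opposite orientation and differed in coverage. Peaks made up 4.53% of the length of Robo1, at 2.17 peaks per 100 kb. Among the 245 coding genes of 400 to 800 kb the median was 1 peak, 25 genes held more than Robo1, and 115 held more than Robo2.

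Srgap1 (ENSMUSG00000020121, chr10:121780991-122047315, minus strand, 266 kb) had both of its peaks in introns and over TG repeats. The peak at chr10:121889200-121889999 scored 35, 21 and 29 in Ctrl and 46, 47 and 49 in Kmt5b sKO. These did not overlap, and the peak was called higher (log2 fold change 0.75, SE 0.35, adjusted p = 0.074). Its call was lost without Ctrl replicate 2 or 3 or without Kmt5b sKO replicate 2 or 3 (adjusted p of 0.11 to 0.2). At chr10:121876200-121877199 the libraries overlapped, with 31, 49 and 54 in Ctrl and 68, 47 and 68 in Kmt5b sKO (log2 fold change 0.46, adjusted p = 0.17, and 0.63 with an adjusted p of 0.081 without Kmt5b sKO replicate 2). The gene sum was 66, 70 and 83 in Ctrl and 114, 94 and 117 in Kmt5b sKO, and its log2 fold change of 0.56 (SE 0.21, adjusted p = 0.02) was just short of the fold threshold. It passed that threshold without Ctrl replicate 3 or without Kmt5b sKO replicate 2 (0.66 in both). With equal totals per library it was 0.36 (adjusted p = 0.16), with median centring 0.21 (adjusted p = 0.42) and with quantile normalization 0.015 (adjusted p = 0.96). The called peak lost its call under each of these scalings (0.55, 0.29 and 0.084, adjusted p of 0.23 to 0.88).

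Srgap2 was the most densely covered of the 4 genes with peaks, and its sum had the smallest log2 fold change of them. Srgap2 (ENSMUSG00000026425, chr1:131285251-131527352, minus strand, 242 kb) encodes the srGAP with roles in membrane protrusion and neuronal migration. Its 22 peaks made up 24.6% of its length, at 9.09 peaks per 100 kb, and 13 of the 614 coding genes of 200 to 400 kb held more peaks. The summed score was 1575, 1803 and 1607 in Ctrl and 2064, 2062 and 1909 in Kmt5b sKO. These groups did not overlap, but the means of 1662 ± 123 and 2012 ± 88.9 (SD, n = 3) gave a log2 fold change of 0.28 (SE 0.12, adjusted p = 0.058), under the fold threshold and close to the median gene sum of 0.32. Centred on the median gene it was −0.07 (adjusted p = 0.32).

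At the level of single peaks 2 of 22 Srgap2 peaks were called higher, 8 did not overlap between genotypes and 18 had a positive log2 fold change (−0.15 to 0.92, median 0.33). These are 9.09%, 36.4% and 81.8% of its peaks, against 32.9%, 41.5% and 78.7% of all tested peaks. The largest change was at chr1:131417800-131418999, with 26, 43 and 34 in Ctrl and 85, 43 and 74 in Kmt5b sKO (log2 fold change 0.92, SE 0.29, adjusted p = 0.0061). One library of each genotype scored 43 there, and the call was lost under median centring (0.47, adjusted p = 0.2), quantile normalization (0.37, adjusted p = 0.37) and with the peak's own variance (adjusted p = 0.16). The other called peak, chr1:131385200-131388599, scored 83, 102 and 91 in Ctrl and 129, 144 and 143 in Kmt5b sKO, with no overlap (log2 fold change 0.59, adjusted p = 0.0092). Its value lay close to the fold threshold. The call held with the peak's own variance, and was lost with a pseudocount of 10, equal totals per library, median centring and quantile normalization. The longest peak, chr1:131320600-131326199, reached 5600 bp and had 111, 138 and 149 in Ctrl and 216, 196 and 164 in Kmt5b sKO (log2 fold change 0.53, adjusted p = 0.0098, short of the fold threshold, which it passed without Ctrl replicate 3, at 0.62, or Kmt5b sKO replicate 3, at 0.64). The peak nearest the start, chr1:131496800-131497999, lay 30 kb into the gene and was not called, with 43, 45 and 31 in Ctrl and 49, 65 and 55 in Kmt5b sKO (log2 fold change 0.50, adjusted p = 0.16).

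Along Srgap2 both called peaks lay in the middle one of 3 equal stretches. The 8 peaks of the stretch nearest the start summed to 606, 797 and 641 in Ctrl and 751, 767 and 696 in Kmt5b sKO, which overlapped (ratio of means 1.08). Those of the middle stretch summed to 427, 445 and 410 in Ctrl and 582, 619 and 592 in Kmt5b sKO (ratio 1.40). In the last stretch the sums were 542, 561 and 556 in Ctrl and 731, 676 and 621 in Kmt5b sKO (ratio 1.22). These stretches were chosen after the data were seen. The share of Srgap2's score between the start and the midpoint of the gene was 44.3%, 49.5% and 45.2% in Ctrl and 43.8%, 43.0% and 45.0% in Kmt5b sKO (exact permutation p = 0.2, adjusted p = 0.2), and the difference of −2.40 percentage points shrank to −0.794 without Ctrl replicate 2. Within 100 kb of the start the shares were 42.6%, 47.1% and 43.1% in Ctrl and 39.6%, 40.9% and 41.1% in Kmt5b sKO, which did not overlap (exact permutation p = 0.1, the smallest possible).

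**Figure D4:**
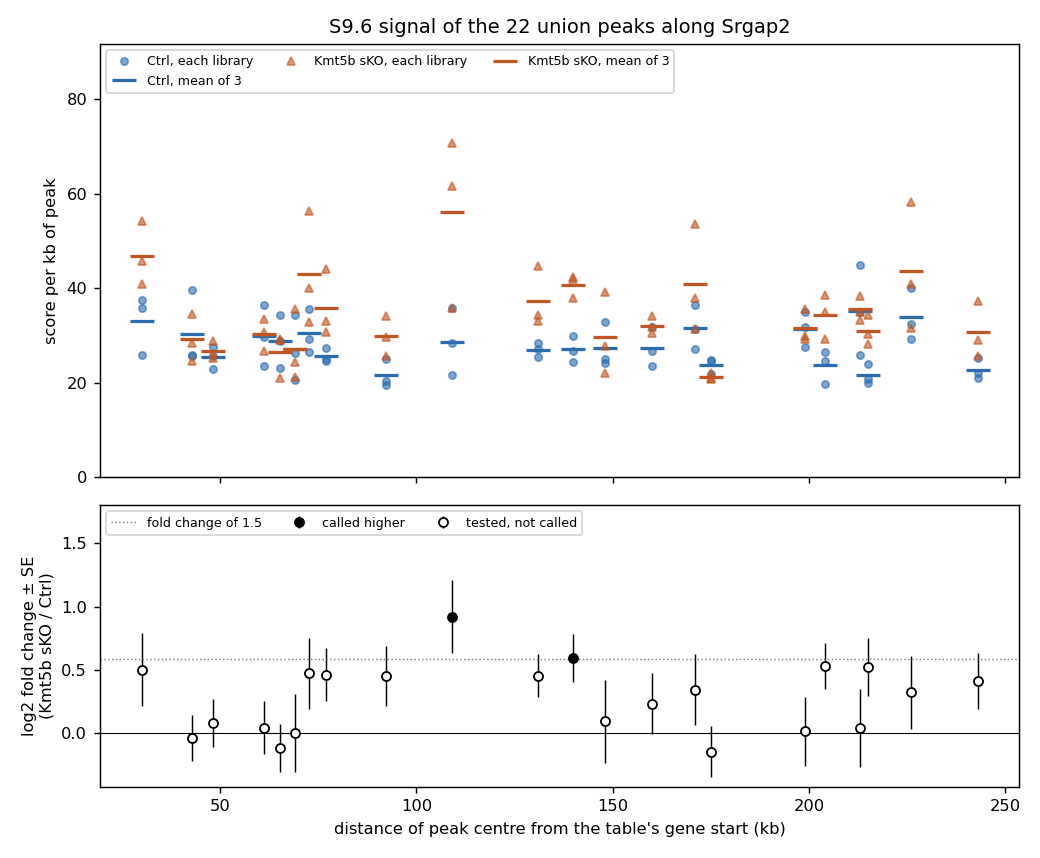
Srgap2 peaks by distance of the peak centre from the gene start (kb). The upper panel gives the score per kb of peak in each library (blue circles Ctrl, orange triangles Kmt5b sKO) with dashes for the mean of 3, and the lower panel the log2 fold change ± SE of the 22 peaks. The 2 filled points, at 109 and 140 kb, are the peaks called higher.

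Robo1 and Srgap2 were compared within each library, which removes the library scale. Robo1 made up 35.0%, 32.3% and 33.2% of the score of both genes in Ctrl and 35.6%, 39.5% and 41.7% in Kmt5b sKO. Every Kmt5b sKO library was above every Ctrl library, by 5.46 percentage points between the means (33.5% ± 1.38 and 39.0% ± 3.10, SD, n = 3, exact permutation p = 0.1, the smallest possible). This pair was chosen after the data were seen.

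None of the peaks lay within 1 kb of the gene start in the table, the nearest being 30 kb away. Of the 41 peaks 36 lay wholly in introns, and 5 overlapped an exon, 4 of them in Srgap2 and 1 in Robo1. Their median GC content was 40.2%, against 42.4% over all tested peaks. CpG content differed between the genes, with medians of 8.16 per kb in Robo1 and 4.39 in Srgap2, against 8.75 over all tested peaks. The mean score per kb of peak was 31.2 at the median peak (22.5 to 53.1), against 33.9 over all tested peaks. Together the tested peaks made up 0.0631% of all tested score in Ctrl and 0.0734% in Kmt5b sKO.

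The rest of the pathway was read from 41 other genes, of which 32 held peaks. Slit1, Robo3, Robo4, Srgap3, Cxcr4, Flrt3, Pak3, Pfn1 and Sdc1 held none. Of 160 tested peaks 25 were called higher (15.6%, against 32.9% of all tested peaks) in 15 genes and none lower. Their median log2 fold change was 0.26. Of 31 gene sums 4 were called higher (12.9%, against 29.3% of all gene sums) and none lower. They were Sdc4 (log2 fold change 1.13), a syndecan heparan sulphate proteoglycan, Usp33 (0.65), a deubiquitinase that binds Robo1, Dag1 (0.64), the gene of dystroglycan, which binds Slit, and Sos2 (0.63), a Ras and Rac exchange factor. With each library centred on its median peak 6 pathway peaks were called higher and 20 lower.

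The 5 pathway peaks with the largest changes and no overlap came from proteoglycan, dystroglycan and kinase genes. A Dag1 peak, chr9:108242600-108243599, scored 19, 26 and 31 in Ctrl and 77, 75 and 71 in Kmt5b sKO (log2 fold change 1.54, SE 0.30, adjusted p = 1.1e-05). A Sdc3 peak, chr4:130794400-130795399, scored 18, 18 and 24 in Ctrl and 44, 84 and 38 in Kmt5b sKO (log2 fold change 1.35, adjusted p = 0.0025). Both genes encode cell surface proteins that bind extracellular ligands. The Sdc4 peak at chr2:164425000-164427399 had 67, 41 and 69 in Ctrl and 129, 116 and 161 in Kmt5b sKO (log2 fold change 1.21, adjusted p = 4.9e-07). In Pak1, a kinase activated by Rac and Cdc42, the peak at chr7:97795200-97798799 scored 92, 89 and 95 in Ctrl and 190, 240 and 203 in Kmt5b sKO (log2 fold change 1.18, adjusted p = 9.4e-09). Its relative Pak2 had 30, 35 and 24 in Ctrl and 77, 58 and 61 in Kmt5b sKO at chr16:32075600-32076399 (log2 fold change 1.12, adjusted p = 0.0014). The lack of overlap was part of the rule that chose these 5 peaks, so it is not a result. The Dag1, Sdc3 and Pak2 peaks had Ctrl means of 25.3, 20 and 29.7, and passed the filter of 30 only through their Kmt5b sKO scores.

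Of 61 genes of the semaphorin, ephrin, netrin and related guidance families 33 held peaks. The median log2 fold change of their 104 tested peaks was 0.22, and 27 peaks passed as higher (26.0%, against 32.9% of all tested peaks) and 1, in Sema3d, as lower. Of 31 gene sums 8 were called higher (25.8%, against 29.3% of all gene sums) and none lower. These were the semaphorin genes Sema5a (log2 fold change 1.49), Sema7a (1.46), Sema3a (0.98), Sema4b (0.88) and Sema4c (0.84), the netrin receptor gene Dcc (1.39), the ephrin receptor gene Epha2 (0.94) and the ephrin gene Efna5 (0.88). With each library centred on its median peak, 7 peaks of these families were called higher and 31 lower.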

How the data were processed

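Sample labels gave the groups: 3 S9.6 libraries a genotype, and 1 input a genotype that entered no comparison. Per the submitters' processing notes and the study's methods, reads were checked with FastQC 0.11.8, trimmed with Trimmomatic 0.39, aligned to mm10 (GRCm38) with STAR 2.7.3a keeping unique alignments, and deduplicated with Picard 2.21.7. Peaks were called against input with Epic2 (the notes list SICER 0.0.41), blacklisted regions were removed, and peaks were unified and annotated with the gene of longest overlap. The score deposited by the authors is the spike-in normalized signal over each union peak, rounded to whole numbers, and was not treated as read counts. Scaling to a spike-in moves all peaks of a library together, and the spike-in reads were not used here.

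Scores were tested in R 4.3.3 with limma 3.58.1 (lmFit, eBayes with trend) on log2(score + 1), so fold changes of low peaks are understated. The prior degrees of freedom were infinite for peaks and for gene sums, so each variance was that of the trend. Autosomal peaks with a mean over 30 entered, as did gene sums over 30, with Benjamini-Hochberg adjustment and calls at adjusted p under 0.1 and fold over 1.5. Shares were compared by exact permutation of the 6 libraries. The fitting step was tested on simulated data whose noise followed a variance trend alone. That test could not show the effect of peaks whose variance differs from the trend. Gene positions came from GENCODE M21, sequence from RefSeq's GRCm38 genome, and 1 sequence is not reported here. Samples were not treated as paired by replicate number, since same-numbered libraries shared no visible deviation (correlations −0.009, 0.011 and −0.027). Such correlations cannot show whether those libraries were prepared together. The members and gene lists were chosen with earlier results of these data known. Peaks were named by rule: per gene the called peak with the largest change, the one nearest the start, the longest and the densest per kb; in the pathway list the 5 largest changes without overlap; and Kmt5b. Other peaks and genes were named after their values were seen. Alternatives covered scaling, pseudocount, filters, variance, fold limit, the replicate block and each library left out; fold changes relative to the median feature, the Robo1 share beside Srgap2, the parts of Robo1 and the 3 stretches of Srgap2 were chosen after seeing the data.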

Additional observations from a re-analysis of the deposited data

How the results depend on the processing

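Main values were 11 peaks of the 4 genes called higher and none lower (median log2 fold change 0.46), gene sums of 0.62 (Robo1), 1.04 (Robo2), 0.56 (Srgap1) and 0.28 (Srgap2), 25 pathway peaks higher and none lower, and 27 guidance peaks higher and 1 lower. The library scale mattered most: equal totals per library shifted the median of all tested peaks by −0.20, median centring by −0.46 and quantile normalization by −0.36. With equal totals 7 peaks of the 4 genes were called higher, the median was 0.25, Robo1 was 0.41, below the fold threshold, 13 pathway peaks were higher and 5 lower, and 14 guidance peaks were lower. Median centring gave 2 peaks higher and 1 lower, a median of −0.0015, Robo1 0.27 and Robo2 0.69 (neither called), Srgap2 −0.073 with the sign turned, 6 pathway peaks higher and 20 lower, and 7 guidance peaks higher and 31 lower. Quantile normalization gave 1 peak higher, a median of −0.084, Robo1 0.48 and Robo2 0.33 (neither called), 5 pathway peaks higher and 10 lower, and 8 guidance peaks higher and 23 lower, and it turned the sign of the second Srgap1 peak (−0.088) and of the Srgap2 peak nearest the start (−0.080). Relative to the median fold change 3 peaks were higher with a median of 0.11, Robo1 was 0.29 (not called), Srgap2 −0.046 (sign turned), 6 pathway peaks were higher and 10 lower, and 11 guidance peaks were higher and 20 lower. A mean score over 100 left 2 peaks higher, with 7 pathway and 10 guidance peaks higher and 0 guidance peaks lower, since fewer peaks entered. Each feature's own variance left 6 peaks and 16 guidance peaks higher and 0 guidance peaks lower, and Robo2 at 1.04 was not called (adjusted p = 0.19). A fold change over 2 left 4 peaks, 7 pathway and 9 guidance peaks higher and 0 guidance peaks lower, and Robo1 at 0.62 was not called, while no fold minimum called Srgap1 (0.56) and Srgap2 (0.28), 48 pathway peaks higher and 4 lower, and 13 guidance peaks lower. A pseudocount of 10 gave a median of 0.40. The share of Srgap2 in peaks of at most 4 kb differed by 3.61 percentage points, against 0.903 for 2 kb. The causes were not tested.

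Leaving out each library in turn, calls among the 4 genes ranged from 9 to 11 higher, with 0 lower and a median of 0.41 to 0.51. Gene sums ranged from 0.57 to 0.70 for Robo1, 0.69 to 1.32 for Robo2, 0.49 to 0.66 for Srgap1 and 0.24 to 0.34 for Srgap2. Pathway peaks called higher ranged from 21 to 32, guidance peaks from 23 to 29, and guidance peaks called lower from 1 to 7, the last without Ctrl replicate 1. The Kmt5b peak turned to 0.14 without Ctrl replicate 2. Differences in share, in percentage points, ranged from 1.15 to 3.86 (Robo1 up to its midpoint), −3.43 to −0.794 (Srgap2 up to its midpoint), −0.613 to 4.05 (short Robo1 peaks), −0.351 to 2.05 (short Srgap2 peaks) and 4.07 to 7.13 (Robo1 beside Srgap2). With the replicate number as a block, 11 peaks of the 4 genes were called higher and none lower, Robo1 was 0.62 (adjusted p = 2.9e-06), and no call of a gene sum or named peak changed. Over the 16 named peaks, 232 of 276 values kept their direction and their side of the threshold. Shares within 100 kb of the Robo1 start could not be run, since no peak lay there. With 3 libraries a genotype, an exact permutation test cannot go below 0.1.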
